A study of Mus musculus with 2 samples.

Results

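Ribosome biogenesis and RNA polymerase I genes were followed in mouse E14.1 cells, a line of embryonic stem cells, that carried either wild-type (WT) AHCY or T136A AHCY. AHCY is the enzyme that removes S-adenosylhomocysteine after methyl groups have been transferred, and T136A exchanges a threonine of it for alanine. One RNA-seq library was made per genotype. The labels do not state how the altered line was made, whether it was 1 clone, or whether the WT form was native. The genes were chosen by name, with earlier results of these data known. The list of 49 covered nucleolar processing factors, proteins of small nucleolar ribonucleoproteins (snoRNPs) and polymerase I. Of these, 48 had a value, among 12320 genes that reached at least 1 RPKM (read numbers divided by gene length and library size) in at least 1 library, and Wdr74 was not analysed here. All 48 stood at 5 RPKM or more in both libraries, so no filter on low values touched them.

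Ribosomes are assembled in the nucleolus, where RNA polymerase I transcribes a long precursor of the ribosomal RNAs. Box C/D and box H/ACA snoRNPs chemically modify that precursor, the former by methylating ribose and the latter by turning uridine into pseudouridine, each led to its target by a small nucleolar RNA. Large sets of assembly factors, helicases and nucleases then fold and trim the precursor into the small and the large subunit. Embryonic stem cells divide fast, and MYC is known as an activator of many of these genes.

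Some of the genes carry small nucleolar RNAs inside their own bodies, and 3 of the snoRNP and nucleolar genes that stood apart below are among them. One guide RNA each is shown for Nop56 and Nop58 and both kinds for Ncl, because the host transcripts went in opposite directions in these libraries. The sequences are the GENCODE M21 transcripts (GRCm38), given 5′ to 3′ as DNA letters. Capitals mark the C box (TGATGA) and the D box (CTGA) of box C/D RNAs and the ACA box of the box H/ACA RNA.
Snord110 in Nop56: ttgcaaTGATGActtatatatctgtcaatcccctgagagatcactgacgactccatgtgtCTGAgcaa
Snord11 in Nop58: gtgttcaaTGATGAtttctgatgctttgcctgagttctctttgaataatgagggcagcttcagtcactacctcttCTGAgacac
Snord82 in Ncl: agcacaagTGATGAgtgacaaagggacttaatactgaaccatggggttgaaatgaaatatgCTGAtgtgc
Snora75 in Ncl: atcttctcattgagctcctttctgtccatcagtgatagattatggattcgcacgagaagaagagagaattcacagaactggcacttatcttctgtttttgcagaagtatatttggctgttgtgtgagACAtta

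The implied library totals were 17506154 reads for WT and 18396840 for T136A. Embryonic stem cell markers were present in both libraries, with all 10 genes of a marker list between 61.0 and 2182 RPKM. At least 1.5-fold higher in T136A were 3 (30%, against 10.4% of all genes). These were Utf1 (94.2 and 284 RPKM), Tdgf1 (161 and 263 RPKM) and Zfp42 (252 and 397 RPKM). The other 7 were lower in T136A, all inside 1.5-fold, among them Nanog (673 and 517 RPKM). Of 11 markers of fibroblast feeder cells that had a value, 6 stayed under 1 RPKM in both libraries, and Acta2, Tagln and Postn were listed at 0 in WT. The summed level of the feeder list was 124 RPKM in WT and 88.2 in T136A, of which Fn1 gave 93.4 and 32.9 RPKM. Of the 5 feeder markers at or above 1 RPKM, 3 were at least 1.5-fold higher in T136A (60%, against 10.4% of all genes). They were Vim (10.9 and 19.9 RPKM), S100a6 (13.3 and 28.0 RPKM) and Thy1. Fn1 and Ccn2 were at least 1.5-fold lower (40%, against 11.3% of all genes), so none of the 5 lay inside 1.5-fold. The part of these markers in the results was not tested. Ahcy itself stood at 52.9 and 56.6 RPKM, which does not check the labels, since a codon change need not alter the transcript level. With 1 library per genotype the spread between cultures is unknown, and every difference below is one between these libraries. In bulk RNA, fewer cells that express a gene and less RNA per cell cannot be told apart.

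As a whole the 48 transcripts differed little between the libraries, and the larger differences went both ways. The median log2 ratio of T136A over WT, with 1 RPKM added to each value, was 0.11 for the members and -0.03 for all 12320 genes. The middle 50% of the members ran from -0.13 to 0.31, and that of all genes from -0.33 to 0.28. At least 1.5-fold higher in T136A were 7 members (14.6%), against 10.4% of all genes, and at least 1.5-fold lower were 4 (8.33%), against 11.3% of all genes. Only Bop1 was at least 2-fold higher and only Nop56 at least 2-fold lower, where 3.13% and 3.1% of all genes were. These shares are near those of all genes. A log2 ratio above 0 was found for 30 of the 48 (62.5%), against 47.4% of all genes and 48.7% of the 4263 genes whose mean level lay within the range of the members. The plot of the distributions shows this shift of the middle beside similar tails.

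**Figure D1:**
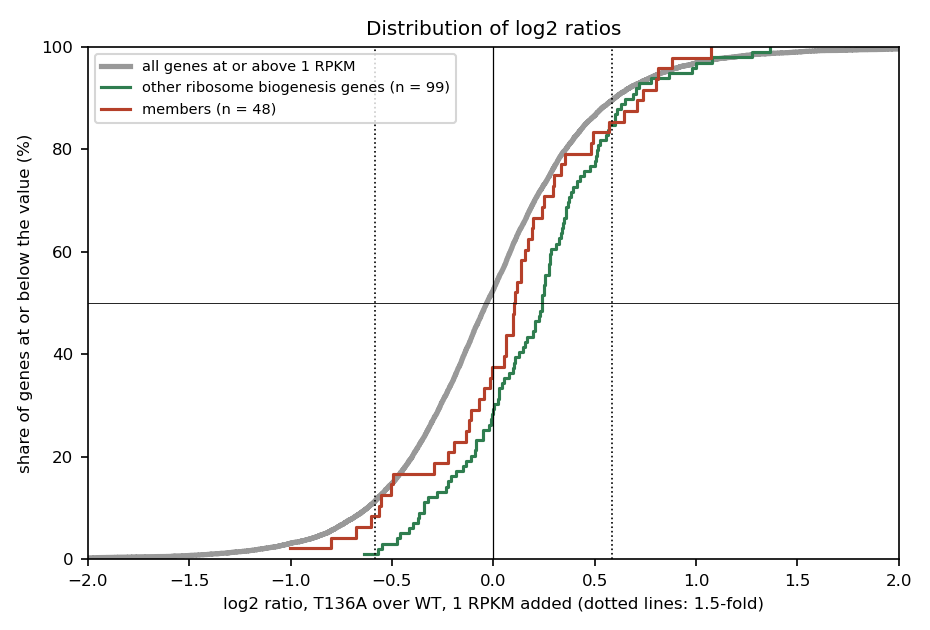
Cumulative share of genes (y axis, percent) at or below each log2 ratio of T136A over WT with 1 RPKM added (x axis), for all genes at or above 1 RPKM (grey), the 48 members (red) and 99 other genes of ribosome biogenesis (green). The members cross the 50% line at 0.11 and all genes at -0.03, and the red and grey curves come close to each other beyond the dotted 1.5-fold lines.

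Levels spanned a wide range within the group. Npm1, a nucleolar histone and ribosome chaperone, was by far the most abundant member, at 1362 RPKM in WT against 1462 in T136A, and lay above 99.8% of all genes in both. Utp15 was the least abundant in WT, at 11.6 RPKM, and Polr1a in T136A, at 11.5 RPKM. Between 937 and 71679 reads lay behind each value, so counting error was small. The 95% counting interval of the fold lay above 1 for 27 members, below 1 for 15, and held 1 for 6. The same count was not made over all genes, so it shows nothing particular to the members. Counting error is all that these intervals hold; they leave out any variation between cultures.

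**Figure D2:**
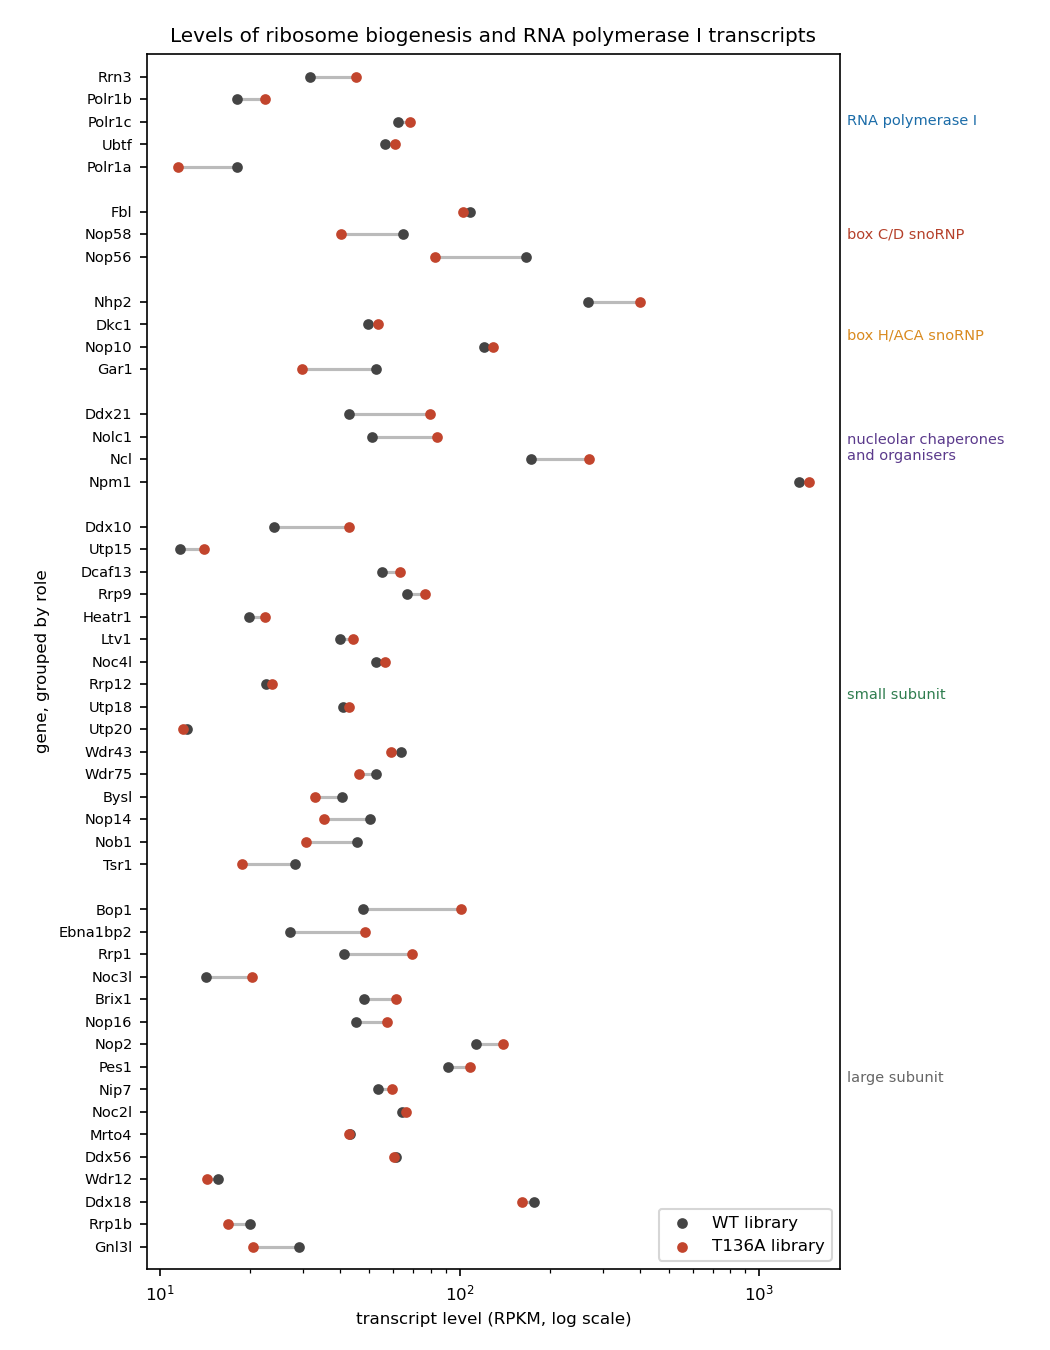
Transcript level in RPKM (x axis, log scale) of each member in the WT library (grey) and the T136A library (red), grouped by role; a line joins the values of a gene, and there is 1 library per genotype. Npm1 stands alone at 1362 and 1462 RPKM, and all other members lie between 11.5 and 399 RPKM.

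The RNA polymerase I genes did not move as one. Polr1a, the largest catalytic subunit, measured 18.0 RPKM in WT against 11.5 in T136A, 1.56-fold lower (95% counting interval 1.49 to 1.65). Polr1b, the second catalytic subunit, had the same WT level of 18.0 RPKM but 22.3 RPKM in T136A. The transcripts of the paired catalytic subunits were thus level with each other per length in WT, and Polr1b was 1.94 times Polr1a in T136A. Such comparisons of level between genes, here and elsewhere, depend on the exon lengths used (11871 bases for Polr1a and 5805 for Polr1b). The change of such a ratio between the libraries does not. Rrn3, the initiation factor that brings the polymerase to the promoter, was highest of the 5 by ratio, at 31.8 and 45.0 RPKM, 1.42-fold higher. Polr1c, a subunit shared with polymerase III and the most abundant of the 5, was at 62.0 and 68.3 RPKM. Ubtf, which binds the ribosomal DNA promoter, was at 56.2 and 61.0 RPKM. Polr1a lay close to the 1.5-fold line, with a log2 ratio of -0.60, and fell inside it with 5 RPKM added (-0.48) and under all 4 other scalings (-0.58 to -0.56).

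Among 16 further polymerase I genes, 2 were at least 1.5-fold higher (12.5%, against 10.4% of all genes). At least 1.5-fold lower were 0, against 11.3% of all genes, and the median log2 ratio was 0.20. Polr1e, a subunit that takes part in initiation and elongation, had the highest ratio, at 7.74 RPKM in WT against 16.5 in T136A. Polr1h, a small zinc-binding subunit listed under its older name Znrd1, had the lowest, at 109 and 78.1 RPKM. None of the 16 showed a difference of the size and direction of Polr1a.

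Of the box C/D snoRNP proteins among the members, Nop56 and Nop58 were lower in T136A, and Fbl differed little. Nop56 (GRCm38 chromosome 2, 130274430 to 130279313, plus strand) measured 167 RPKM in WT against 82.5 in T136A, 2.02-fold lower (1.96 to 2.08). Its paralogue Nop58 (chromosome 1, 59684971 to 59719044, plus strand) stood at 64.7 and 40.1 RPKM, 1.62-fold lower (1.57 to 1.66). NOP56 and NOP58 form a dimer on the guide RNA and hold the methyltransferase in place. Fbl, that methyltransferase, which takes its methyl group from S-adenosylmethionine, was at 108 and 103 RPKM, a log2 ratio of -0.07. Nop56 transcripts were therefore 1.54 times those of Fbl per length in WT and 0.803 times in T136A. The fourth core protein, Snu13, which is no member, went the other way, at 165 and 201 RPKM. Nop56 has 4 near-identical pseudogenes in GENCODE M21, of which the 3 with a value summed to 5.26 RPKM in WT and 3.29 in T136A. It also lay on the 2-fold line, at 2.02-fold, and no member was 2-fold lower with 5 RPKM added or under 3 of the 4 other scalings.

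The box H/ACA snoRNP split, with 1 of its 4 proteins lower. Gar1, which helps the enzyme release its product, measured 52.5 RPKM in WT against 29.7 in T136A, 1.77-fold lower (1.63 to 1.92). Nhp2, an RNA-binding core protein and the most abundant of the 4, stood at 268 and 399 RPKM, 1.49-fold higher (1.44 to 1.54). Nhp2 was just inside the 1.5-fold line as deposited, with a log2 ratio of 0.57, and past it under 3 of the 4 other scalings (0.60 to 0.61). The pseudouridine synthase Dkc1 (49.4 and 53.3 RPKM) and the small protein Nop10 (121 and 129 RPKM) had log2 ratios of 0.11 and 0.10. Dkc1 and Gar1 transcripts were close to each other per length in WT, and Dkc1 was 1.79 times Gar1 in T136A. Nhp2 transcripts were 5.10 times those of Gar1 in WT and 13.4 times in T136A.

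**Figure D3:**
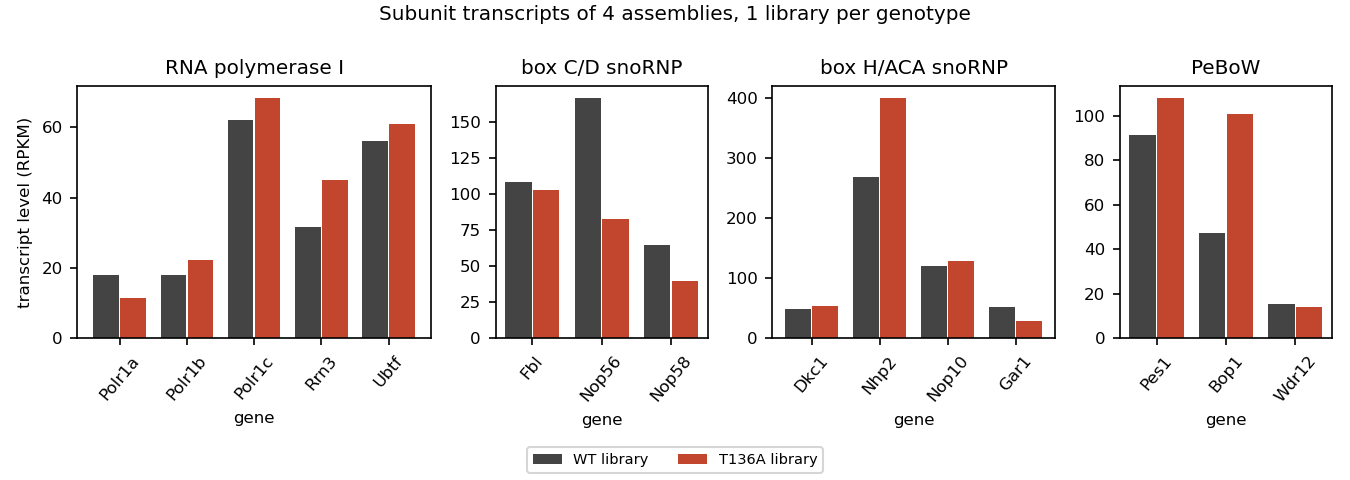
Transcript level in RPKM (y axis, from 0, with its own range in each panel) of the genes of RNA polymerase I, the box C/D snoRNP, the box H/ACA snoRNP and the PeBoW complex in the WT library (grey) and the T136A library (red), 1 library each and so without error bars. Within each assembly the genes differ in direction or size: Nop56 goes from 167 to 82.5 RPKM beside Fbl at 108 and 103, and Bop1 from 47.4 to 101 beside Wdr12 at 15.7 and 14.3.

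The 4 nucleolar chaperones and organisers were all higher in T136A (100%, against 47.4% of all genes), with a median log2 ratio of 0.68. Past 1.5-fold were 3 of them (75%, against 10.4% of all genes). This small role group was formed with earlier results of these data known. Ddx21 (chromosome 10, minus strand), a helicase that links polymerase I transcription to the modification of the precursor, measured 42.7 RPKM in WT against 79.6 in T136A, 1.86-fold higher (1.79 to 1.94). Nolc1, a phosphoprotein that chaperones snoRNPs, stood at 50.9 and 83.7 RPKM, 1.65-fold higher (1.58 to 1.71). Ncl, the nucleolin gene, whose product binds the precursor RNA and nucleolar chromatin, stood at 173 and 271 RPKM, 1.57-fold higher (1.54 to 1.59). Npm1, the most abundant of all, was only 1.07-fold higher (1.06 to 1.08). Npm1 has 5 near-identical pseudogenes with values that summed to 304 RPKM in WT and 337 in T136A, so its own level is uncertain.

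Of the 16 factors of the small subunit, 15 were inside 1.5-fold, and the median log2 ratio was 0.06. Past 1.5-fold higher was 1 (6.25%), against 10.4% of all genes, and lower were 0, against 11.3%. The exception was Ddx10, a helicase of early processing, at 23.9 RPKM in WT against 42.7 in T136A, 1.79-fold higher (1.67 to 1.91). Heatr1, Utp15, Wdr43 and Wdr75 belong to the subcomplex that binds the nascent precursor and is needed for its transcription. Their log2 ratios were 0.17, 0.25, -0.11 and -0.19. Rrp9, a protein of the U3 snoRNP that guides early cleavage and the most abundant of the 16, was at 66.9 and 76.4 RPKM. Utp18, Utp20, Rrp12, Noc4l, Dcaf13 and Ltv1 had log2 ratios from -0.05 to 0.20.

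Tsr1, Nob1, Nop14 and Bysl had the lowest ratios of the small subunit group. Tsr1, a GTPase-like protein of late cytoplasmic particles, measured 28.1 RPKM in WT against 18.7 in T136A, with a counting interval of 1.40 to 1.61-fold lower. Nob1, the nuclease that makes the final cut of the small subunit RNA, stood at 45.6 and 30.8 RPKM, 1.48-fold lower (1.40 to 1.57). Bysl, which accompanies the particle out of the nucleus, was at 40.5 and 32.9 RPKM. Nop14, by contrast an early factor, was at 50.3 and 35.1 RPKM. Ltv1, another late factor, was at 40.0 and 44.1 RPKM, and Pno1, a partner of NOB1 that is no member, was at 58.0 and 116 RPKM, so the late factors did not share a direction. Bysl shares 9.37% of its exon bases with Ccnd3 on the other strand (54.9 and 63.0 RPKM), so part of its reads may belong to that gene. Tsr1 was just inside the 1.5-fold line with 1 RPKM added, at a log2 ratio of -0.56, and just past it in recovered reads, at -0.59. It shares 32.3% of its exon bases with Srr on the other strand, which stood at only 0.601 and 0.620 RPKM.

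In the group of the large subunit, 3 of the 16 genes with a value were at least 1.5-fold higher (18.8%, against 10.4% of all genes). At least 1.5-fold lower were 0, against 11.3% of all genes, and the median log2 ratio was 0.20. Bop1 (chromosome 15, minus strand) had the highest ratio of all members, at 47.4 RPKM in WT against 101 in T136A, 2.13-fold higher (2.02 to 2.24). BOP1 works in the PeBoW complex with PES1 and WDR12, which is needed to process the precursor of the large subunit RNAs. Pes1 was at 91.2 and 108 RPKM and Wdr12 at 15.7 and 14.3 RPKM. Pes1 transcripts were thus 1.92 times those of Bop1 per length in WT and 1.07 times in T136A. Wdr12 has a near-identical pseudogene, Gm4879, at 3.10 RPKM in WT and 3.63 in T136A, so the level of Wdr12 itself is uncertain. Ebna1bp2, an early assembly factor, stood at 27.2 and 48.2 RPKM, 1.77-fold higher (1.67 to 1.88), and Rrp1, a nucleolar factor of the same pathway, at 41.3 and 69.4 RPKM, 1.68-fold higher (1.60 to 1.77).

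Rrp1 and its paralogue in the large subunit group differed in direction. Rrp1b, that paralogue, was at 19.9 RPKM in WT against 16.9 in T136A, a log2 ratio of -0.23 beside 0.74 for Rrp1. Rrp1 transcripts were 2.07 times those of Rrp1b per length in WT and 4.11 times in T136A. Gnl3l, a nucleolar GTPase, had the lowest ratio of the group, at 29.2 and 20.4 RPKM, 1.43-fold lower (1.35 to 1.51). Its paralogue Gnl3, or nucleostemin, which is no member and lies on chromosome 14, was at 90.2 and 129 RPKM. Among the NOC factors, which accompany early particles through the nucleus, Noc3l had a log2 ratio of 0.48, Noc2l one of 0.05 and Noc4l, of the small subunit, one of 0.10. Noc2l shares 20.9% of its exon bases with Samd11, whose level was under 0.1 RPKM in both libraries.

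The remaining large subunit genes stayed well inside 1.5-fold. Ddx18, a helicase and the most abundant of the group in both libraries, was at 178 and 162 RPKM. Nop2, which methylates a cytosine of the large subunit RNA, was at 113 and 140 RPKM. The assembly factors Brix1 and Nop16 had log2 ratios of 0.35 and 0.33, and Nip7 one of 0.16. Mrto4, a relative of a ribosomal stalk protein, and the helicase Ddx56 had log2 ratios of -0.01 and -0.02, which turned positive under 3 of the 4 other scalings. Mrto4 has 2 near-identical pseudogenes with values that summed to 11.1 RPKM in WT and 12.1 in T136A, so its own level is uncertain.

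**Figure D4:**
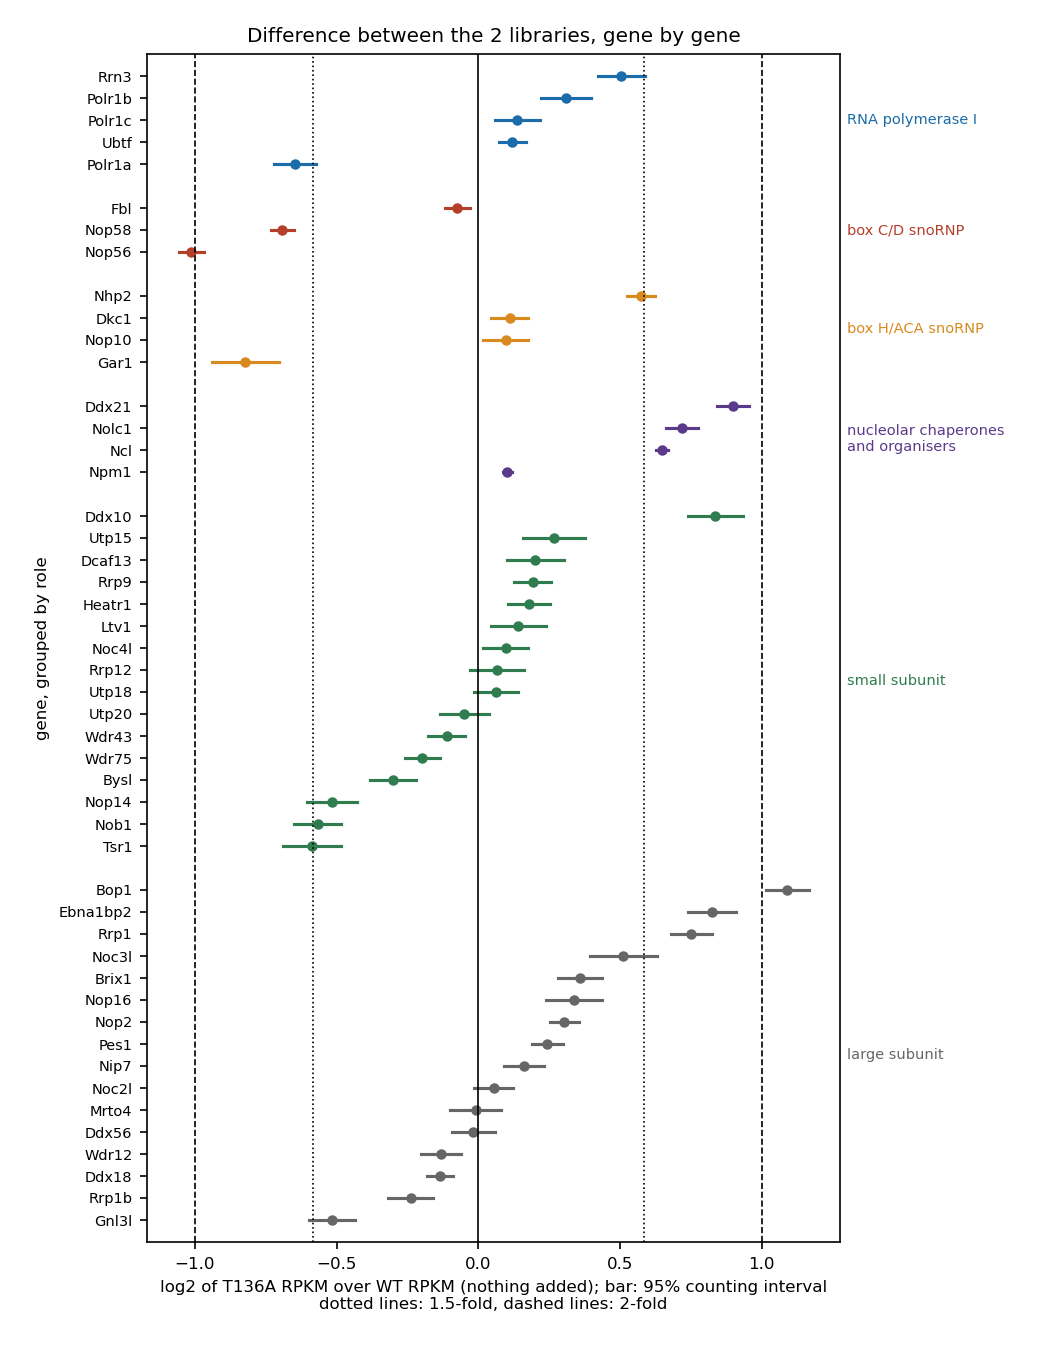
Log2 of the ratio of T136A RPKM to WT RPKM with nothing added (x axis) for each member, grouped by role and coloured alike; bars are 95% counting intervals from the recovered reads and hold no variation between cultures. Bop1 lies furthest to the right at 2.13-fold higher and Nop56 furthest to the left at 2.02-fold lower, while 15 of the 16 small subunit genes lie inside or on the dotted 1.5-fold lines.

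Other genes of the same pathway, from lists written by role with earlier results of these data known, were mostly higher in T136A. Of 99 with a value, 15 (15.2%) were past 1.5-fold higher, against 10.4% of all genes. Past 1.5-fold lower there was 1, against 11.3% of all genes. A log2 ratio above 0 was found for 70 (70.7%), against 47.4% of all genes, and the median was 0.24. Small subunit factors outside the members had a median of 0.28 over 38 genes, with 9 (23.7%) past 1.5-fold higher and 0 lower. Nop9 (19.1 and 50.8 RPKM) had the highest ratio there and the acetyltransferase Nat10 (28.2 and 18.7 RPKM) the lowest. Large subunit factors outside the members had a median of 0.25 over 34 genes, with 3 (8.82%, under the share of all genes) past 1.5-fold higher and 0 lower. Nifk (53.1 and 113 RPKM) was highest and the helicase Ddx55 (8.14 and 5.24 RPKM) lowest. The nuclear RNA exosome, which trims and degrades precursor RNA, had a median of -0.05 over 11 genes, with 1 past 1.5-fold in each direction. Its nuclease Dis3 (29.5 and 48.2 RPKM) was highest and the nuclease Exosc10 (46.6 and 29.6 RPKM) lowest.

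The 453 genes of chromosome 14 had a median of 0.32 on the log2 scale, against -0.04 for the 11867 others. Nop9, the small subunit factor Ngdn (47.4 and 116 RPKM), Gnl3 and Dis3 lie on it. None of the 48 members does. Without chromosome 14 the median of the other small subunit factors was 0.28 over 36 genes, and that of the exosome was -0.16 over 10 genes. Of the 36, 7 were past 1.5-fold higher and 0 past 1.5-fold lower, where 10.4% and 11.3% of all genes were.

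Small nucleolar RNA genes lie within the bodies of 6 members on the same strand, 12.5% of the 48, against 1.89% of all genes at or above 1 RPKM. These hosts are Nop56, Nop58, Ncl, Tsr1, Wdr43 and Dkc1. Their log2 ratios were lowest for Nop56 and highest for Ncl, at 0.65, and 4 of the 6 were below 0. Of the 233 hosts among all genes 129 were below 0, with a median of -0.07. Of all 12320 genes 6479 were below 0, with a median of -0.03, so the hosts lay near all genes. Snhg1, a host with no protein of its own, was at 142 RPKM in WT against 15.3 in T136A, a log2 ratio of -3.13. It was picked for context and does not stand for the hosts as a whole. Of the 18 small nucleolar RNA genes within the members, among them the 4 printed above, 8 had a value, and no value rested on more than 4 reads. The libraries therefore give the host transcripts and say nothing of the guide RNAs they release.

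Myc, which encodes the activator named above, was at 2.27 RPKM in WT against 17.7 in T136A, 7.82-fold higher (6.39 to 9.63). The MYC binding motif CACGTG, which reads the same on both strands, was searched in the RefSeq promoter windows (GRCm38.p6) from 250 bases before to 50 bases after each gene start. Windows were given for 42 of the 48 members. At least 1 match was found for 8 of them (19%), against 12.3% of the 8904 genes at or above 1 RPKM with a window and 8.09% of all genes in the table. The 8 were Nop2, Ltv1, Utp20, Pes1, Tsr1, Utp18, Rrn3 and Wdr43. Members with the motif had a median log2 ratio of 0.10 and members without it one of 0.11. Over the 8904 genes these medians were -0.06 and -0.03. Of the 7 members past 1.5-fold higher, none had the motif in its window, and Bop1 had no window. These 7 genes are too few to set against the share of all genes. A match is only a string of letters, and its absence speaks of this window alone. Any part of MYC in the differences between the libraries was not tested.

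The matches that lie before the gene start are shown because they place the motif in the promoters of a polymerase I initiation factor and of 2 processing factors whose levels differed little. Up to 30 bases on each side are given 5′ to 3′ on the strand of the gene, with the motif in capitals.
Rrn3 at chr16:13780454-13780519, plus strand: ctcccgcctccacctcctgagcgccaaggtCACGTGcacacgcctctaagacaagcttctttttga
Rrn3 at chr16:13780621-13780686, plus strand: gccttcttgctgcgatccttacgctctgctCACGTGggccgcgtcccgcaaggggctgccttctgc
Nop2 at chr6:125131793-125131858, plus strand: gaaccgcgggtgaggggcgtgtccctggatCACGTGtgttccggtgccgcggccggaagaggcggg
Utp18 at chr11:93885767-93885816, minus strand: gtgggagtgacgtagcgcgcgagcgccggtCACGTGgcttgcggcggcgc
Rrn3, with 2 matches, was 1.42-fold higher in T136A, Nop2 was 1.23-fold higher (1.19 to 1.28), and the fold of Utp18 was 1.04 (0.989 to 1.10). The members with a match only after the gene start, which are not shown, went both ways. Their log2 ratios were -0.56 for Tsr1, -0.11 for Wdr43, -0.05 for Utp20, 0.14 for Ltv1 and 0.24 for Pes1.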

How the data were processed

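The authors deposited 1 value per Ensembl mouse gene and library, without a unit. The values were read as RPKM (deposited reads scaled by exon length and library total), because multiplying by the union exon length in GENCODE M21 and 1 constant per library gave whole reads, within 0.01, for 89.9% of positive values in WT and 90.0% in T136A. The submitters' processing notes name CASAVA 1.8 and mm9 with no role, yet the lengths are those of GRCm38 models: 99.2% of WT values were whole outside chromosomes 14 to 19 and 50.2% on them. No source used here gives the aligner, the counter or a strand rule. Library preparation used an Illumina TruSeq RNA kit, per the labels' protocols.

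Symbols matched 25696 of 25749 identifiers. For 41 members reads came from the M21 length and for 7 from the shortest length from 200 bases that made both values whole within 0.001; with a multiple of that length their intervals would be narrower. Intervals are exact conditional binomial (Clopper-Pearson, 95%; scipy 1.17.1), and reads without molecular identifiers are not independent molecules. Near-identical copies are matches of at least 300 bases at 95% identity (BLAST+ 2.17.0): 8 members had one, and 12 shared exon bases with another gene. Members and lists were chosen with earlier results of these data known. Named were the highest, lowest and most abundant member of each role, the 10 largest differences, those past 1.5-fold and paralogue pairs. Also named were the ends of each pathway list, and Ahcy, Myc and Snhg1. Snu13, Pno1, Ngdn and the other members given by ratio were added after their values were seen. The steps were tested on simulated reads. Alternatives were another added constant, 4 scalings, other minimum levels, no chromosome 14, recovered reads and, chosen after seeing the data, no members that may share reads.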

Additional observations from a re-analysis of the deposited data

How the results depend on the processing

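The median log2 ratio of the members stayed between 0.099 and 0.15 under every alternative run on it. Members at least 1.5-fold higher numbered 6 to 8 and those at least 1.5-fold lower 3 or 4. The count of members at least 2-fold lower, which is Nop56 alone, went from 1 to 0 with 5 RPKM added, under scaling by the median of ratios, the upper quartile or the trimmed mean of log ratios, and without the 10 members that may share reads, Nop56 being one of them. In the other 160 recomputations, medians stayed within a 95% order-statistic interval over genes (for fewer than 6 genes, the range of the list; for all genes, the interquartile range) and counts within 1.5 times the reported count. No called value turned its direction. Single members were run under 7 alternatives, in which Polr1a, Nhp2 and Tsr1 crossed the 1.5-fold line. The 4 scalings moved the median of all genes by 0.026 to 0.035. Leaving out chromosome 14 could change nothing, as 0 members lie there. The other minimum levels could change no member or list result either, since every such gene with a value passed them. These recomputations are among the 160 and are no check. No paired analysis was possible because each genotype had 1 library, and for the same reason no library could be left out. At least 937 reads lay behind each member's value, and the spread between replicates could not be measured.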
